A study of Mus musculus with 4 samples.

Results

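The heat shock proteins and chaperones described here are 39 genes, most of them cytosolic, whose products fold, hold or rescue other proteins. They were taken as a named list, and a gene was followed where a probe set of the array is listed with that gene alone. This held for 37 of the 39, and all 37 passed the intensity filter, out of 10916 genes tested in the series. Hsp90ab1, the constitutive cytosolic HSP90 gene, and Hsf1, the gene of the main heat shock transcription factor, had no such probe set and were not analysed here. Hspa9, Hspd1 and Hspe1 stand on the list although their products work in mitochondria, and they are described as a group of their own. The samples were whole dorsal skin of male C57B6 mice in adult telogen, when hair follicles rest. The late group (P59) was taken at postnatal day 59 and the middle group (P54) at postnatal day 54, with 2 arrays each, and the labels give no treatment other than shaving and excision after death. They call the arrays of a group biological replicates but do not say which or how many animals each came from, so that p-values measure the spread between these samples.

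Heat shock proteins are named for the rise of their transcripts when cells are warmed or otherwise stressed. In unstressed cells HSF1 is held inactive, in part by chaperones themselves. When unfolded proteins draw those chaperones away, HSF1 forms trimers, binds heat shock elements in the promoters of its targets and raises their transcription. HSP70 proteins bind unfolded stretches of a client in a cycle driven by ATP, J-proteins (the DNAJ families) deliver clients and start the ATP hydrolysis, and HSP110 proteins and BAG proteins exchange the nucleotide. HSP90 finishes the folding of kinases and steroid receptors with the help of co-chaperones, TRiC is a closed barrel that folds actin and tubulin, and the small heat shock proteins hold unfolded clients without using ATP. In skin, HSPB1 is abundant in differentiating keratinocytes, and several other small heat shock proteins are best known from muscle, which lies under the dorsal dermis of mice as the panniculus carnosus.

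The authors deposited probe set intensity, which was taken to log2, and every level below is a log2 intensity and every difference a P59 minus P54 difference of mean log2 intensity. Levels of different probe sets are not on a common scale, so only differences are set side by side between genes. P59 replicate 2 stood apart from the other 3 arrays on the first principal component of all genes tested, with a score of 35.4, against -4.31 in P59 replicate 1 and -8.57 and -22.5 in P54 replicates 1 and 2. All 9 keratinocyte genes on the array, all 6 dermal fibroblast genes and all 20 skeletal muscle genes of the marker lists passed the intensity filter. In whole skin, fewer cells of a type and less RNA per cell cannot be told apart.

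The promoters are shown first for the HSP70 genes of the stress response and for Dnajb1, since Dnajb1 and Hspa1a had the largest negative differences among the inducible genes and Hspa1b is the near-identical copy of Hspa1a. The sequences are RefSeq's on GRCm38.p6, from a table that held 30 of the 39 members. It had no entry for Hspa8, Hspa9, Hsp90aa1, Hsp90ab1, Hspb2, Cryab, Cct4, St13 or Hsf1. Each line gives the 250 bases before the annotated start, 5′ to 3′ on the gene's strand, and capitals mark matches to the heat shock element searched. That element was GAANNTTCNNGAA or its reverse complement TTCNNGAANNTTC, which are both strands of 1 motif, with up to 1 of its 9 fixed letters changed. Matches may overlap, and overlapping ones were merged in the capitals.
Hspa1a (chr17:34972157-34972406, minus strand): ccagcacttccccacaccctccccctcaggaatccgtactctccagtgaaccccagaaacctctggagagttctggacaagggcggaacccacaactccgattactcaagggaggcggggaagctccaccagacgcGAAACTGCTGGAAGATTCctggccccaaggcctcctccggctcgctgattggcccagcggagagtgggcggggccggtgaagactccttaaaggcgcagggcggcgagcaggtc
Hspa1b (chr17:34959239-34959488, minus strand): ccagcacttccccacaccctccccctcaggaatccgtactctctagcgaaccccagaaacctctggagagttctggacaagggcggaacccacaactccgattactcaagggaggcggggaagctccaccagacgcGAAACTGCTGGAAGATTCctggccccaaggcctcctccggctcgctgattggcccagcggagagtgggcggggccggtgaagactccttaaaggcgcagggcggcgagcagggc
Dnajb1 (chr8:83607925-83608174, plus strand): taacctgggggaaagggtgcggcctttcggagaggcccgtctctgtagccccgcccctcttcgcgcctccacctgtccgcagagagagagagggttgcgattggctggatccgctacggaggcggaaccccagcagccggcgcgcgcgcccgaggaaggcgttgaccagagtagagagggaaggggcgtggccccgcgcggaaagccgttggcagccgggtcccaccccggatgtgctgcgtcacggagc
The Hspa1a and Hspa1b stretches were identical at 247 of 250 bases, and in both the match began 114 bases before the start. The Dnajb1 stretch held no match to these letters. Its GC content was 69.6%, against 63.2% for Hspa1a.

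Exact matches, with no letter changed, were found for 4 members, and these are shown with 3 bases on each side in lower case because they are the clearest instances of the element among the members. Hspd1 and Hspe1, whose products form the mitochondrial chaperonin and its lid, are divergent neighbours and share 1 site of 18 bases between their starts.
Hspe1 and Hspd1 (chr1:55088056-55088079, plus strand): ccgTTCTAGAACCTTCCGGAAggc
Hsph1 (chr5:149636285-149636303, minus strand): agaTTCTGGAAAGTTCtcc
Chordc1 (chr9:18292260-18292288, plus strand): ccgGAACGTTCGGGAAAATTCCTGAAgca
The Hspe1 site began 89 bases before that gene's start, the Hsph1 site shown lay just after the start, and the Chordc1 site spanned it. Over promoter windows of 300 bases (250 before and 50 after the start), an exact match was present for 4 of 30 members (13.3%) and for 179 of 27025 genes in the table (0.662%). With up to 1 letter changed the shares were 15 of 30 members and 2202 of 27025 genes (8.15%). Among the stress-inducible members 5 of the 7 listed there had such a match, and Dnajb1 and Bag3 had none. In these shares Hspd1 and Hspe1 are counted separately, as are Hspa1a and Hspa1b. Some genes have several windows. By window, exact matches were in 5 of 43 for members and 198 of 32851 in the table. With up to 1 letter changed the window counts were 17 of 43 and 2372 of 32851. A match is a description of the letters and does not show a bound site.

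None of the 37 genes passed the adjusted threshold between late and middle telogen skin. Dnajb1, a J-protein that partners the inducible HSP70, was the member with the smallest p, at 0.585-fold in P59 skin. Most stress-inducible genes were lower at P59 on average, and P54 replicate 1 held the highest value for 7 of these 8 genes. On the brightest probe set of each gene, TRiC genes differed by at most 0.17 in either direction. On these sets the small heat shock protein genes ran from -0.43 (Hspb8) to 0.58 (Hspb7). The value of Hspb7 rests on P59 replicate 1, without which it was -0.03.

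No member passed the adjusted threshold of 0.05 in limma's fit, where 2 of 10916 genes did (0.0183%). At an unadjusted p under 0.05 Dnajb1 was lower, which is 1 of 37 members (2.70%), against 3.01% of all genes tested. On the higher side the count was 0 of 37, against 3.47% of all genes, and in either direction it was 1 of 37, against 6.49%. Both P59 arrays lay above both P54 arrays for 3 members (8.11%), Cryab, Cct2 and Cct8, against 18.9% of all genes, and below both for 4 members (10.8%), Dnajb1, Hsph1, Dnajb2 and Hspb8, against 14.8%. These shares were not above the background. Differences were positive for 18 members (48.6%, against 58.4% of all genes) and negative for 19 (51.4%, against 41.6%), with a median of -0.01, where all genes tested had a median of 0.05. For 31 of the 37 members the 95% interval of the difference lay within 1 log2 unit, a 2-fold change, in both directions. The 6 whose interval reached further were Hspa1a, Dnajb1, Stip1, Fkbp4, Hspb6 and Hspb7.

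**Figure D1:**
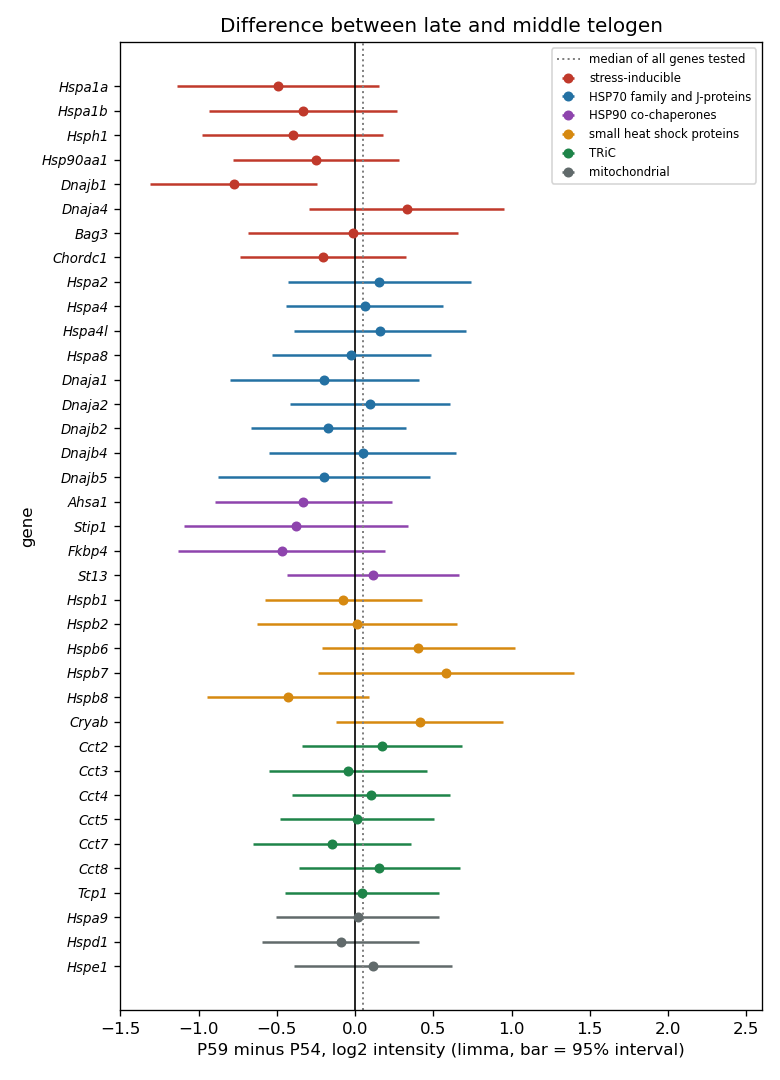
P59 minus P54 difference in log2 intensity (horizontal axis) for the 37 tested genes, grouped by role, with limma's 95% interval as bars. The interval of Dnajb1 (-1.31 to -0.24) is the only one that leaves out 0, and the dotted line marks the median of all genes tested, 0.05.

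The stress-inducible group had a median difference of -0.29, with 7 of its 8 members lower and 1, Dnaja4, higher. Dnajb1 was at 9.75 and 9.83 in P59 replicates 1 and 2, against 10.77 and 10.36 in P54 replicates 1 and 2. Both P59 values lay below both P54 values, and the P54 arrays lay further apart than the P59 arrays. Its means were 9.79 ± 0.05 at P59 and 10.56 ± 0.29 at P54 (SD, n = 2 each), a difference of -0.77 (SE 0.24, 95% interval -1.31 to -0.24, unadjusted p = 0.00887, adjusted p = 0.511). A second Dnajb1 probe set gave 9.40 and 8.61 at P59, against 10.17 and 9.80 at P54, a difference of -0.98. The groups did not overlap on either set. With 1 array left out at a time the difference of Dnajb1 ran from -0.98 to -0.57, and -0.57 was the value without P54 replicate 1. No p-value is given for that fit, in which limma gave every member the same standard error.

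Hspa1a and Hspa1b encode the inducible HSP70, the best known product of the heat shock response. Hspa1a was at 9.73 and 10.03 in the P59 arrays, against 10.77 and 9.97 in the P54 arrays. P54 replicate 1 was high and the other 3 arrays lay close together, so that the groups overlapped. The difference was -0.49 (95% interval -1.14 to 0.16, adjusted p = 0.875), and it became -0.09 with P54 replicate 1 left out and -0.89 with P54 replicate 2 left out. Hspa1b was at 11.31 and 11.68 at P59, against 12.12 and 11.53 at P54, with the same array high and the groups overlapping. Its difference was -0.33 (95% interval -0.93 to 0.27, adjusted p = 0.934), or -0.03 without P54 replicate 1, and its other probe sets differed by -0.32 and -0.36. On the set with -0.36 both P59 values lay below both P54 values, with P54 replicate 1 again highest. Since the promoters shown above and the transcripts of this gene pair are nearly identical, signal may be shared between their probe sets and they do not count as separate evidence.

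Hsph1, which encodes an HSP110 exchange factor for HSP70, was at 9.51 and 9.65 at P59, against 10.28 and 9.68 at P54. Both P59 arrays were lower, but P59 replicate 2 and P54 replicate 2 differed by little. Its difference was -0.40 (95% interval -0.98 to 0.18, adjusted p = 0.893), and -0.10 without P54 replicate 1. A second Hsph1 set was at 8.68 and 8.54 at P59, against 9.22 and 8.38 at P54. On that set the groups overlapped, with a difference of -0.20. Hsp90aa1, the inducible cytosolic HSP90 gene, was at 11.12 and 11.34 at P59, against 11.65 and 11.32 at P54, a difference of -0.25 (95% interval -0.78 to 0.28, adjusted p = 0.946). P54 replicate 1 was again the highest array, with the other 3 lying close together and the groups overlapping. Chordc1, an HSP90-binding protein gene, differed by -0.21, and Bag3, which links HSP70 to the small heat shock proteins and to autophagy, by -0.01. Dnaja4, a J-protein gene, was the exception in direction with 0.33 (95% interval -0.30 to 0.95). Its 2 other probe sets differed by 0.11 and -0.54, and the mean of its sets by -0.04.

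The position of P54 replicate 1 was common to the group. It held the highest of the 4 values for 7 of the 8 stress-inducible members and for 21 of all 37 members (56.8%), where it did so for 22.7% of all genes tested. Taken as deviations from each gene's mean over the 4 arrays, the median of the stress-inducible group was -0.25 and -0.06 in P59 replicates 1 and 2 and 0.42 and -0.12 in P54 replicates 1 and 2. P54 replicate 2 thus lay between the P59 arrays. Replicate 1 minus replicate 2 within P54 had a median of 0.60 in this group, 0.31 over all members and 0.14 over all genes tested. It was 0.80 for Hspa1a, 0.72 for Bag3, 0.70 for Dnaja4, 0.60 for both Hspa1b and Hsph1, 0.41 for Dnajb1, 0.37 for Chordc1 and 0.33 for Hsp90aa1. Without P54 replicate 1 the median difference of the group was -0.06 with 6 of 8 members lower, and without P54 replicate 2 it was -0.52 with 8 of 8 lower. Among the 30 members with a promoter in the table, P54 replicate 1 was highest for 9 of the 15 with a heat shock element match and for 9 of the 15 without one. The median of replicate 1 minus replicate 2 within P54 was 0.42 for those with a match and 0.20 for those without. These sets also differ in role, with 5 stress-inducible members among those with a match and 2 among those without. Neither the contrast nor the part of role in it was tested.

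**Figure D2:**
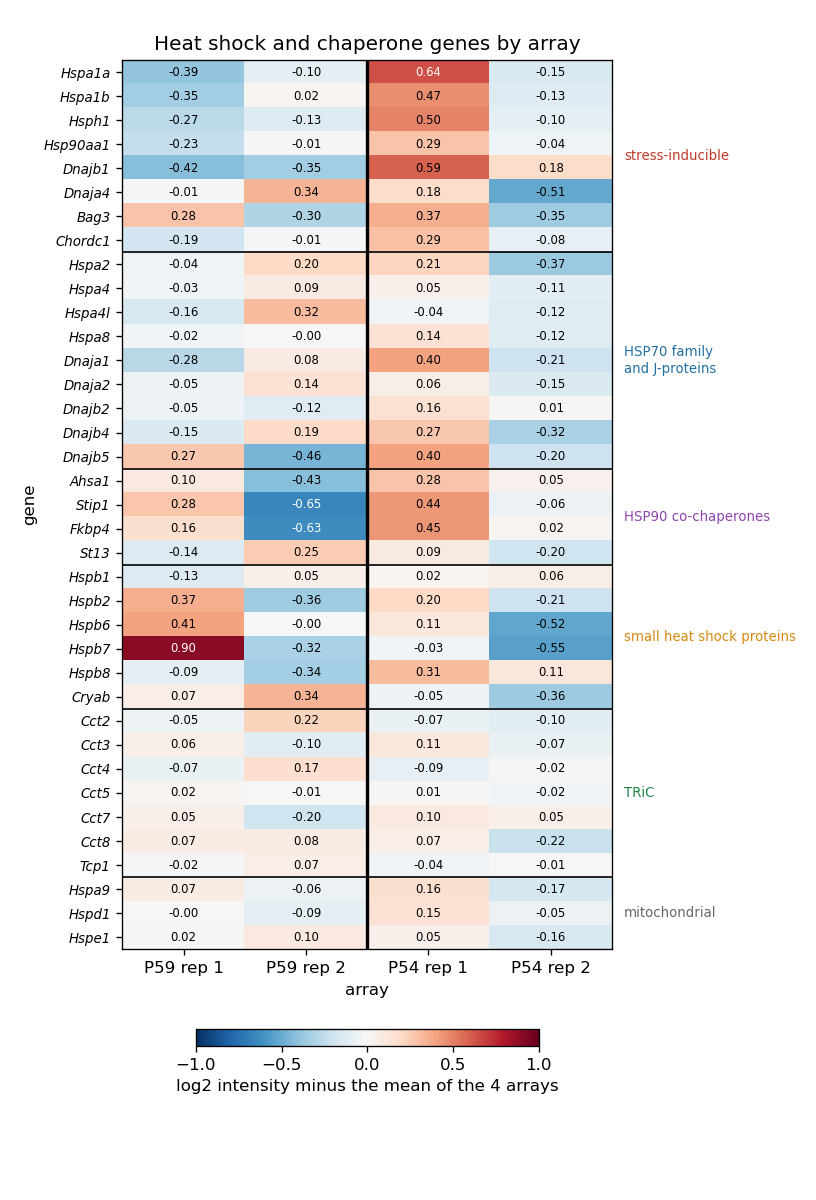
Log2 intensity of each tested gene on each array minus that gene's mean over the 4 arrays, as colour and number, with P59 arrays left of the line and P54 arrays right of it. P54 replicate 1 is the highest array for 7 of the 8 stress-inducible genes, while the TRiC rows stay near 0.

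Immediate early genes, which cells switch on within minutes of many stimuli, had medians in the same order over the 4 arrays as the stress-inducible chaperones. Of 18 tested, 14 were lower at P59 and 4 higher, with a median difference of -0.35, and 5 were lower at an unadjusted p under 0.05 with 0 past the adjusted threshold. P54 replicate 1 was the highest array for 14 of the 18. Their median deviation was -0.30 and -0.02 in the P59 arrays, against 0.35 and -0.11 in the P54 arrays. Fos was at 9.64 and 9.65 at P59, against 12.19 and 9.85 at P54, so that P54 replicate 1 alone was high. Nr4a1 was at 9.44 and 8.56 at P59, against 11.37 and 9.43 at P54, and Dusp1 at 10.39 and 11.10, against 11.93 and 11.25. Fos, Nr4a1 and Dusp1 were highest in P54 replicate 1 but did not follow the order of the medians over the other arrays. Not all genes of the list were highest in P54 replicate 1. Junb, the gene of the list with the smallest p, was at 7.80 and 6.71 at P59, against 8.09 and 8.44 at P54, and Jund at 10.37 and 10.58, against 10.85 and 10.93, both highest in P54 replicate 2. The summed intensity of the list was 14.10 and 14.46 (log2) at P59, against 15.09 and 14.41 at P54. Adipocyte genes were also highest in P54 replicate 1 for 4 of 6, with 5 of 6 lower at P59, 2 of them at an unadjusted p under 0.05, and a median difference of -0.32. Their median deviation was -0.20 and -0.05 in the P59 arrays, against 0.36 and 0.03 in the P54 arrays, and their summed intensity was 13.55 and 13.73 (log2), against 14.05 and 13.84. The part of either list in the chaperone values was not tested. P54 replicate 1 was the highest array for 4 of 8 smooth muscle genes, 2 of 5 endothelial and 3 of 9 keratinocyte genes. The counts were 4 of 20 for skeletal muscle, 1 of 6 for dermal fibroblast and 0 of 6 for macrophage genes. All 6 macrophage genes were higher at P59, with a median difference of 0.56.

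**Figure D3:**
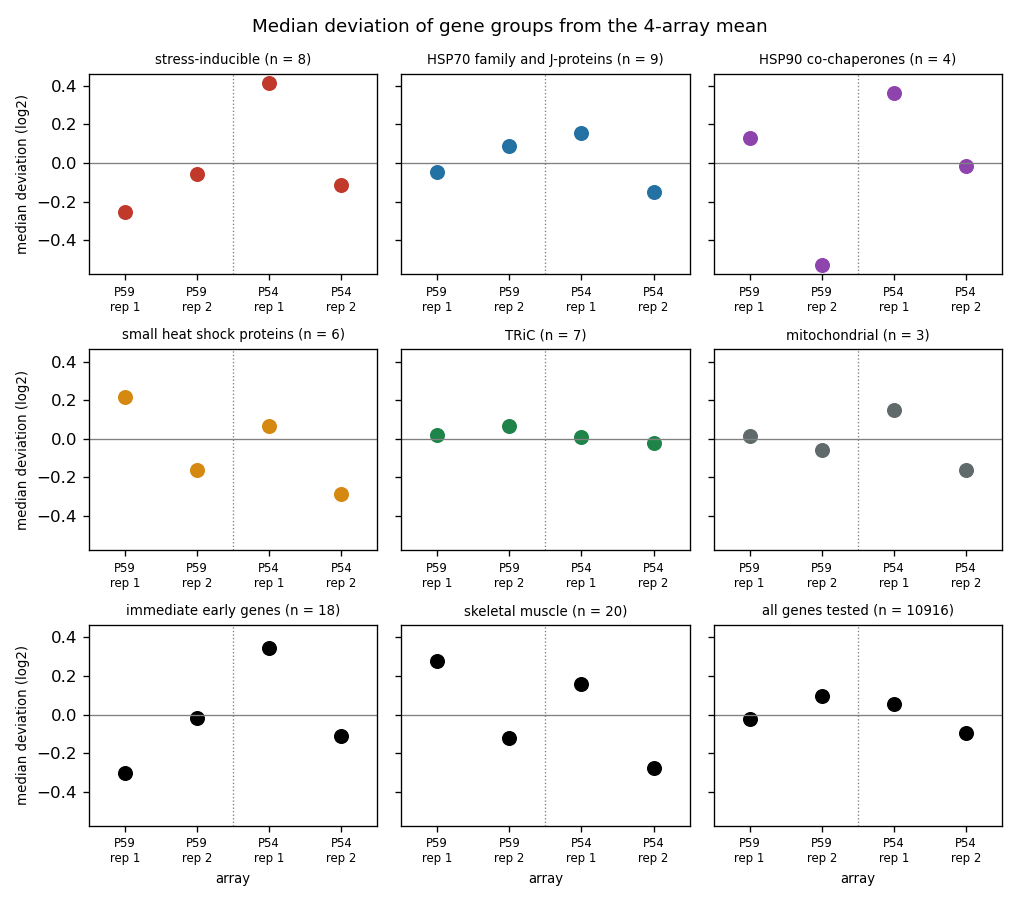
Median deviation from the 4-array mean (log2 intensity, vertical axis) on each array for the chaperone groups, the immediate early genes, the skeletal muscle genes and all genes tested. The stress-inducible group stands at 0.42 and the immediate early genes at 0.35 in P54 replicate 1, and all genes tested stay between -0.10 and 0.10.

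The other HSP70 family members and J-proteins showed smaller differences, with a median of 0.05, 5 higher and 4 lower, and a range of -0.20 to 0.16. Hspa8, the constitutive HSP70 that most cells hold in large amounts, was at 13.09 and 13.11 at P59, against 13.26 and 13.00 at P54. The P59 values lay between the P54 values, and the difference was -0.03 (95% interval -0.53 to 0.48, adjusted p = 0.999). Dnajb5, a J-protein gene, was at 8.79 and 8.06 at P59, against 8.93 and 8.32 at P54, and both groups spanned more than the difference of -0.20. Dnaja1, a J-protein partner of HSPA8, was at 10.71 and 11.07 at P59, against 11.39 and 10.79 at P54. Its highest value was in P54 replicate 1, as for 6 of the 9 genes of this group. The difference of Dnaja1 was -0.20 (95% interval -0.80 to 0.41), and 0.11 without that array. Hspa2, an HSP70 best known from male germ cells, differed by 0.16, and the HSP110 family genes Hspa4 and Hspa4l by 0.06 and 0.16. Dnajb2, Dnajb4 and Dnaja2 differed by -0.17, 0.05 and 0.09, and all adjusted p-values of the group were at least 0.955. Leaving out P54 replicate 1 gave a group median of 0.14, and leaving out P54 replicate 2 gave -0.16. With the mean of the probe sets of each gene it was -0.059, and with each set on its own -0.022.

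Among the co-chaperones of HSP90, 3 of 4 were lower, with a median difference of -0.35. For these 3 P59 replicate 2 was the lowest array, as it was for 23.3% of all genes tested. P54 replicate 1 was their highest array, as it was for 22.7% of all genes tested. Fkbp4, which encodes an immunophilin of steroid receptor complexes, was at 9.85 and 9.05 at P59, against 10.13 and 9.71 at P54. P59 replicate 1 lay between the P54 arrays and P59 replicate 2 below them. The difference of Fkbp4 was -0.47 (95% interval -1.13 to 0.19, adjusted p = 0.891), and -0.07 without P59 replicate 2. Stip1, which encodes the adaptor that joins HSP70 to HSP90, was at 9.09 and 8.16 at P59, against 9.25 and 8.75 at P54, with the same array low. Its difference was -0.38 (95% interval -1.09 to 0.34, adjusted p = 0.938), and 0.09 without P59 replicate 2. Ahsa1, the activator of the HSP90 ATPase, differed by -0.33. St13, an HSP70-interacting co-chaperone, was at 10.44 and 10.84 at P59, against 10.67 and 10.38 at P54, with P59 replicate 2 highest, and differed by 0.12. The median of these 4 was -0.07 without P59 replicate 2, -0.72 without P59 replicate 1 and -0.17 without P54 replicate 1. Without P59 replicate 1 Fkbp4, Stip1, Ahsa1, Hspb8 and Dnajb1 had an unadjusted p under 0.05, with adjusted p-values of 0.121 to 0.245. In that fit 2030 of 10916 genes had an unadjusted p under 0.05, so these 5 stand among many, and the 1 remaining P59 array is the one that stood apart.

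The small heat shock proteins differed in both directions. Their median difference was 0.21, with 4 higher and 2 lower, and it depended on the probe sets read. It was 0.016 with each set on its own, 0.069 with the mean of the sets of each gene and 0.40 without sets named _s_at, _x_at or _a_at. Hspb7, known from heart and skeletal muscle, was at 10.37 and 9.15 at P59, against 9.43 and 8.92 at P54. P59 replicate 1 was far above the other 3 arrays, and P59 replicate 2 lay within the P54 values. The difference was 0.58 (95% interval -0.24 to 1.40, adjusted p = 0.891), or -0.03 without P59 replicate 1 and 1.19 without P59 replicate 2 (adjusted p = 0.262). Another Hspb7 set above the filter was at 9.12 and 7.03 at P59, against 7.98 and 7.67 at P54, a difference of 0.25. On that set P59 replicate 1 was the highest array and P59 replicate 2 the lowest. Hspb8, whose product works with BAG3, was at 11.29 and 11.04 at P59, against 11.70 and 11.50 at P54. The groups did not overlap, and the difference was -0.43 (95% interval -0.94 to 0.09, adjusted p = 0.863). Its other probe sets were divided. One gave 9.91 and 6.93 at P59, against 10.07 and 9.95 at P54, with P59 replicate 2 far below the rest, and the other differed by 0.02.

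Cryab encodes αB-crystallin, a small heat shock protein of lens and muscle. It was at 11.93 and 12.20 at P59, against 11.81 and 11.50 at P54, and its second probe set above the filter was at 11.87 and 12.01, against 11.56 and 11.26. Both sets had P59 above P54 on every array, with differences of 0.41 (95% interval -0.12 to 0.95, adjusted p = 0.870) and 0.53. Hspb6, known from smooth and striated muscle, differed by 0.40 (95% interval -0.21 to 1.02, adjusted p = 0.909), with the highest value in P59 replicate 1 and the lowest in P54 replicate 2. Hspb2, which lies beside Cryab in the genome and is expressed in muscle, differed by 0.01. Hspb1, the small heat shock protein gene of the epidermis, differed by -0.07 (95% interval -0.57 to 0.43), and its 4 values lay between 13.48 and 13.67. The median of the group was -0.01 without P59 replicate 1, 0.39 without P54 replicate 1 and 0.02 without P54 replicate 2.

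P59 replicate 1 was the highest array for 15 of 20 skeletal muscle genes, where it was so for 17.5% of all genes tested. Of the 6 small heat shock protein genes it was the highest array for Hspb2, Hspb6 and Hspb7. Cryab was highest in P59 replicate 2, Hspb8 in P54 replicate 1 and Hspb1 in P54 replicate 2. The summed intensity of the muscle list was 17.97 and 17.53 (log2) at P59, against 17.86 and 17.47 at P54, and its median deviation was 0.28 and -0.12, against 0.16 and -0.28. None of the 20 muscle genes was below the intensity filter. Mb, the myoglobin gene, was at 13.21 and 12.97 at P59, against 12.43 and 11.32 at P54 (difference 1.22, adjusted p = 0.460), and Acta1, named after its values were seen, differed by -0.002. The median difference of the muscle list was 0.11, with 11 higher and 9 lower, and the part of muscle content in the small heat shock protein values was not tested. Of 8 smooth muscle genes 3 were higher and 5 lower, with a median of -0.08. Keratinocyte genes were lower for 8 of 9, with a median of -0.25, while Hspb1 differed by -0.07.

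TRiC was measured through 7 of its subunit genes. Their values were close together on the 4 arrays, with a median difference of 0.05, 5 higher and 2 lower, and a range of -0.15 to 0.17. Cct2 was at 11.32 and 11.60 at P59, against 11.31 and 11.27 at P54, and Cct8 at 10.30 and 10.32, against 10.30 and 10.01. Both had P59 above P54 on every array, by a very small margin over the nearer P54 array. Their differences were 0.17 (95% interval -0.34 to 0.68, adjusted p = 0.959) and 0.16 (95% interval -0.36 to 0.67, adjusted p = 0.964). Cct5 varied from 11.22 to 11.26 over all 4 arrays and Tcp1, the founding subunit, from 11.35 to 11.46. Cct3, Cct4 and Cct7 differed by -0.04, 0.10 and -0.15. Cct6a, a TRiC subunit gene outside the member list, is counted with the other chaperone genes below. It was named after its values were seen and differed by -0.11. All these values are from the brightest sets. Other sets above the filter differed by 0.04 and 0.42 for Cct2 and by 0.10, -0.08 and -0.33 for Cct3. For Cct4 they differed by 0.13, 0.26 and 0.15, and for Cct7 by -0.09. Within P54 the arrays of this group lay a median of 0.05 apart (absolute value), against 0.60 for the stress-inducible genes and 0.19 for all genes tested. Within P59 the same median was 0.16 for TRiC, 0.26 for the stress-inducible genes and 0.30 for all genes tested.

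The mitochondrial chaperone genes had a median difference of 0.02. Hspe1, the co-chaperonin HSP10 gene, was at 10.88 and 10.96 at P59, against 10.91 and 10.70 at P54 (difference 0.11, 95% interval -0.39 to 0.62, adjusted p = 0.972). Hspd1, which encodes the chaperonin HSP60 from the other side of the shared promoter shown above, was at 11.29 and 11.20 at P59, against 11.44 and 11.24 at P54 (difference -0.09, 95% interval -0.60 to 0.41, adjusted p = 0.981). On these sets the groups overlapped for both genes. A second Hspe1 set was at 9.12 and 9.08 at P59, against 8.90 and 8.87 at P54, higher on both P59 arrays with a difference of 0.22. Hspa9, which encodes mitochondrial HSP70, differed by 0.02 on its brightest set and by 0.20 and 0.33 on the other sets above the filter. With P54 replicate 1 left out the median of the 3 genes became 0.18, and with P54 replicate 2 left out it became -0.15. It was 0.15 with the mean of the probe sets of each gene and -0.021 after repeated quantile normalization.

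The 37 genes had 99 probe sets in all. Beside the brightest set of each gene, 41 further sets of 23 genes lay above the intensity filter, and 32 of these had a difference of the same sign as the brightest set. The sets of the inducible HSP70 gene Hspa1b, of Dnajb1 and of Cryab were alike in direction. For 5 sets the difference lay more than 0.5 away from that of the brightest set, and all 5 were more negative. A dimmer set of Hspa4 was at 6.92 and 5.99 at P59, against 7.36 and 7.71 at P54 (difference -1.08), while its brightest set differed by 0.06. A dimmer set of Hsp90aa1 differed by -0.91, and unlike the brightest set it was highest in P54 replicate 2. Dnaja2 had a set that differed by -0.64 and others that differed by 0.38 and 0.03. The remaining sets of the 5 were those of Dnaja4 and Hspb8 given above. For these genes the value depends on which probe set is read.

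**Figure D4:**
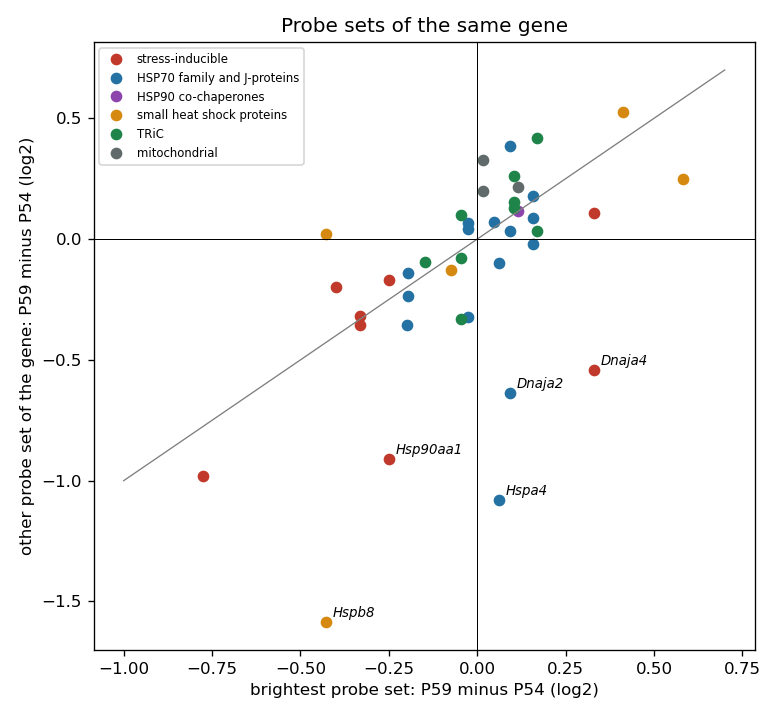
P59 minus P54 difference (log2) of the brightest probe set of each gene (horizontal axis) against that of its other probe sets above the intensity filter (vertical axis, 41 points), with the line of equality. Most points share the sign of the brightest set, and the named genes have a set more than 0.5 away from it.

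Other chaperone and co-chaperone genes did not pass the adjusted threshold either. Most act in the cytosol, but the list also holds mitochondrial ones such as Trap1, Grpel1 and Dnaja3 and membrane or endoplasmic reticulum ones such as Hspa13, Dnajc1, Dnajb12 and Dnajb14. Of 51 listed, 45 were tested, with 29 higher and 16 lower, a median of 0.07, 0 past the adjusted threshold, 0 higher and 1 lower at an unadjusted p under 0.05. The lower gene was Cdc37l1, a relative of the kinase co-chaperone CDC37, at 8.97 and 9.03 at P59, against 9.59 and 10.09 at P54 (difference -0.84, 95% interval -1.39 to -0.29, adjusted p = 0.490). Fkbp5, an HSP90 immunophilin whose gene is induced by glucocorticoids, was at 10.85 and 11.68 at P59, against 10.80 and 10.45 at P54 (difference 0.64, adjusted p = 0.787). Its direction was opposite to that of the related Fkbp4, and the difference between these genes was not tested. Stub1, a ubiquitin ligase that acts on chaperone clients, was at 10.43 and 9.16 at P59, against 10.56 and 10.49 at P54 (difference -0.73, adjusted p = 0.811). Its low array, P59 replicate 2, was also that of Stip1 and Fkbp4.

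Genes of the endoplasmic reticulum, which answer to a different stress pathway, had differences centred on 0. The list holds chaperones and folding enzymes of that compartment and, beside them, the stress regulators Atf4, Ddit3 and Xbp1 and the degradation factor Herpud1. All 20 were tested, with 10 higher and 10 lower, a median of 0.00, 0 at an unadjusted p under 0.05 in limma's fit and 0 past the adjusted threshold. Their median deviation was 0.02 and 0.05 in the P59 arrays, against 0.09 and -0.11 in the P54 arrays, closer together than those of the stress-inducible genes. Hsp90b1, the HSP90 of this compartment, differed by 0.28 (95% interval -0.26 to 0.82), and P4hb, a disulphide isomerase subunit, by -0.47 (95% interval -1.21 to 0.26).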

How the data were processed

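The 4 arrays were grouped by their labels into P59 and P54. The authors deposited 1 table of linear probe set intensity. The submitters' processing notes name Affymetrix Expression Console and RMA (background correction, normalization and probe summary), without versions. Intensity was taken to log2 with no pseudocount. The table has 45101 probe sets, 64 of them controls. The platform's gene annotation at GEO, possibly dated, lists 34958 sets with 1 gene symbol and 932 with several, which were left out. The brightest set stood for each of 18193 genes, and 10916 with a mean log2 intensity over the 40th percentile (6.58) were tested. P59 minus P54 was fitted in limma 3.58.1 (R 4.3.3; lmFit, eBayes without trend), with 2 residual and 8.18 prior degrees of freedom and Benjamini-Hochberg adjustment over all genes tested. An exact permutation test of 2 against 2 arrays cannot reach 0.05, and the number of arrays limits precision. The procedure was tested on simulated data.

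Members and lists were chosen with earlier results of these data known. Every member is named, and array values are given for members with an unadjusted p under 0.05, the 2 largest differences of each role, and Hspa1a, Hspa1b, Hspa8 and Hsp90aa1. Array values of other members and probe sets were chosen after they were seen. Up to 6 genes of each further list were eligible by smallest p. Alternatives varied the filter, probe set choice, normalization, moderation, replicate block and arrays used. P54 and P59 arrays of the same number share no stated animal or batch.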

Additional observations from a re-analysis of the deposited data

How the results depend on the processing

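The count of members past the adjusted threshold stayed 0 in all alternatives, while over all genes tested it ran from 0 to 402. When limma tested each set on its own, 5 of 87 member probe sets were lower at an unadjusted p under 0.05. These were 2 sets of Dnajb1 and 1 each of Hspa4, Hsp90aa1 and Dnaja2. Over all sets, 658 of 20967 were lower at that threshold. In the fit reported the lower count was 1 gene. With 1 array left out the lower count ran from 0 to 5 and the higher count from 0 to 1 (Hspb7). Leaving out 1 array also gave median differences of -0.52 to -0.06 (stress-inducible), -0.16 to 0.14 (HSP70 family and J-proteins), -0.72 to -0.07 (HSP90 co-chaperones), -0.01 to 0.39 (small heat shock proteins), 0.011 to 0.089 (TRiC) and -0.15 to 0.18 (mitochondrial). The TRiC median was 0.091 with each probe set on its own. Other choices of probe set gave medians of 0.016 (each set), 0.069 (mean of sets) and 0.40 (without _s_at, _x_at and _a_at sets) for small heat shock proteins, against 0.21, of -0.022 (each set) and -0.059 (mean of sets) for the HSP70 family and J-proteins, against 0.048, and of 0.12 (each set) and 0.15 (mean of sets) for the mitochondrial genes, against 0.016. The mitochondrial median was -0.021 after repeated quantile normalization. Of 251 member values with all arrays kept, 7 were opposite in sign. With the mean of all sets these were Dnaja4 (-0.035), Hspa4 (-0.44), Hspa4l (-0.017) and Dnaja2 (-0.031), without sets named _s_at, _x_at or _a_at Hspa4l (-0.018), and after repeated quantile normalization Cct5 (-0.032) and Hspa9 (-0.021). The cause of these reversals was not tested. With 1 array left out, 29 of 148 member values, of 20 members, were opposite in sign, with ranges over the 4 such fits of Bag3 (-0.37 to 0.35), Hspa8 (-0.16 to 0.11), Dnaja1 (-0.50 to 0.11), Dnajb5 (-0.56 to 0.17), Cct3 (-0.14 to 0.048), Hspd1 (-0.19 to 0.0087), Dnaja4 (-0.020 to 0.68), Hspa2 (-0.14 to 0.45), Hspa4 (-0.018 to 0.14), Dnaja2 (-0.0087 to 0.19), Dnajb4 (-0.25 to 0.35), St13 (-0.081 to 0.31), Hspb2 (-0.35 to 0.37), Cct5 (-0.0047 to 0.031), Hspa9 (-0.15 to 0.18), Hspb1 (-0.17 to 0.017), Hspb7 (-0.030 to 1.19), Hspa4l (-0.081 to 0.40), Stip1 (-0.84 to 0.089) and Cct4 (-0.016 to 0.22).

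Same-numbered arrays did not deviate together (correlation of deviations from the group means -0.04 over all genes tested). With the replicate block 0 members passed the adjusted threshold and 1 was lower at an unadjusted p under 0.05 (Dnajb1, -0.77, adjusted p = 0.344), and 156 genes of the whole table passed instead of 2. In fits that leave 1 array in a group, that array is assumed to vary like the others. With the replicate block, and in the fits without a P54 array, all members had the same standard error. The p-values of these fits follow the size of the difference alone, so their counts cannot be set beside those of the main fit.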
